A study of Mus musculus with 13 samples.

Results

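Mouse limb buds with a conditional Sox9 deletion aimed at their mesenchyme were compared with controls at embryonic day E12.5, with 3 Sox9 conditional knockout libraries against 3 control libraries over all 12880 genes of the deposited expression table. These 6 libraries were taken by their column headings from a series of 13, and the other 7 are E11.5 limb buds, 3 controls (Sox9fl/-) and 4 mutants (Sox9-/-, called Sox9null in the labels). At E12.5 the controls were Sox9fl/fl and the mutants, called Sox9cKO, were Sox9fl/flPrx1CreER, so that both groups carried floxed Sox9 alleles and only the mutants carried the Prx1CreER transgene. Per the table's header, the numbered libraries of a group come from the limb buds of separate embryos. The Prx1 promoter drives CreER, a Cre recombinase that acts only with tamoxifen, in limb bud mesenchyme, so cells outside that lineage (ectoderm, blood, muscle precursors) are not expected targets. The tamoxifen dose and timing, whether controls received it, the strain, and the share of fore- and hindlimbs in each library are not stated in the labels or the header.

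SOX9 is the transcription factor that commits limb mesenchyme to cartilage. Cells first gather into condensations, then, under SOX9 with its partners SOX5 and SOX6, switch on the genes of cartilage matrix: collagens II, IX and XI, aggrecan, link protein, matrilins and the enzymes that build and sulfate glycosaminoglycan chains. BMP, WNT, hedgehog and FGF signals from the ectoderm and the mesenchyme set where condensations and, between them, joints form, and muscle, tendon, vessels and blood share the bud.

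Levels are given as NRPKM, the authors' normalized reads per kilobase of gene, scaled to library size, and differences as Sox9cKO minus control on the log2(NRPKM + 1) scale, which understates changes of low genes. The 6 libraries had relative depths of 0.829 to 0.951 against the mean of the series, judged from the steps between low values. Limb mesenchyme markers stood at like levels in both groups: Prrx1 at 38.9, 37.7 and 38.9 in controls and 42.4, 40.4 and 40.4 in Sox9cKO, with Prrx2, Twist1, Lhx9 and Hoxd13 between 30.4 and 67.1 in every library. Control 2 stood apart from the other controls and correlated better than either with each Sox9cKO library (Pearson r of log2 values over genes 0.979, 0.980 and 0.976). The mean of 4 Y-linked genes was 22.7 to 23.8 in the 3 controls and 23.3 in Sox9cKO 3, but at most 0.0512 in Sox9cKO 1 and 2, so sex and genotype are partly confounded. Of 6 genes lower at E12.5 than at E11.5 in controls, which were chosen after values were seen, Lin28a, an RNA-binding protein of early embryos, was at 1.42, 2.37 and 1.67 in controls, 3.35, 3.61 and 5.36 in Sox9cKO and 6.52 on average in the E11.5 controls, with control 2 and Sox9cKO 3 the highest of their groups (log2 difference 0.85, limma adjusted p = 0.564). The others differed less: Lin28b (0.38), Trim71 (0.31) and Hmga2 (0.06) overlapped between groups, and Igf2bp1 (0.10) and Igf2bp3 (0.06) did not, and none was called. The part of embryo age in the results below was not tested, and that of sex only through the fit with a sex term.

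Sox9 itself (chr11:112782224-112787760, + strand, mm10) was little lower in the mutants. Its level was 37.5, 35.2 and 35.9 NRPKM in controls 1 to 3 and 35.1, 28.6 and 32.2 in Sox9cKO 1 to 3. The groups did not overlap, but control 2 and Sox9cKO 1 were all but equal. The log2 difference was -0.18 (SE 0.118; limma, Benjamini-Hochberg adjusted p = 1; exact two-sided permutation test p = 0.1, the smallest that 3 against 3 allows). A level summed over the gene does not separate deleted from intact exons, and no source used here names the exons that the floxed allele loses, so the value is a weak check of the labels. In the E11.5 mutants the log2 difference was -0.76.

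Of the 12880 genes, 25 were called at a limma adjusted p under 0.05 (0.194%). Of these, 18 fell in Sox9cKO (0.14%) and 7 rose (0.0543%), and 16 differed by at least 1 on the log2 scale (0.124%). In every called gene named here the 3 Sox9cKO values and the 3 control values did not overlap, which over all genes held for 1095 genes with Sox9cKO lower (8.5%) and 1483 with Sox9cKO higher. The genes that fell were led by cartilage matrix genes, and those that rose were 4 predicted or noncoding genes, 2 red cell genes and Cdh22. Among the 18 that fell, control 2 was the lowest control in 17 and Sox9cKO 1 the highest mutant in 16, against 32.2% and 31.2% of all genes. Counts of calls moved with the libraries used: 47 without control 2 and 40 without Sox9cKO 1, but 9 without control 1, 11 without control 3, 15 without Sox9cKO 2 and 10 without Sox9cKO 3, and 38 without control 1 of E11.5. At E11.5, control 2 with Sox9null 1 and 2 formed a set apart from the other 4 libraries; with a term for these sets, which were read from the data, 72 genes were called lower (0.559%) and 33 higher (0.256%), the 25 among them. That fit is called the library-set fit below. Its term is the same for all 6 E12.5 libraries, so it changes the estimate of spread and not the E12.5 log2 differences. Calls that it adds rest on sets read from these same data and are not separate support. In a fit of the 6 E12.5 libraries alone 26 genes were called (0.202%), 13 of them among the 25; the calls lost there were those of Cdh22, Matn1, Slpi, Acan, Col11a2, Gm15557, Fam101a, Spnb1, Nog, Cthrc1, Chadl and Glt25d2 (adjusted p 0.0546 to 0.102). With a term for sex 26 genes were called (0.202%), 19 of them among the 25.

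**Figure D1:**
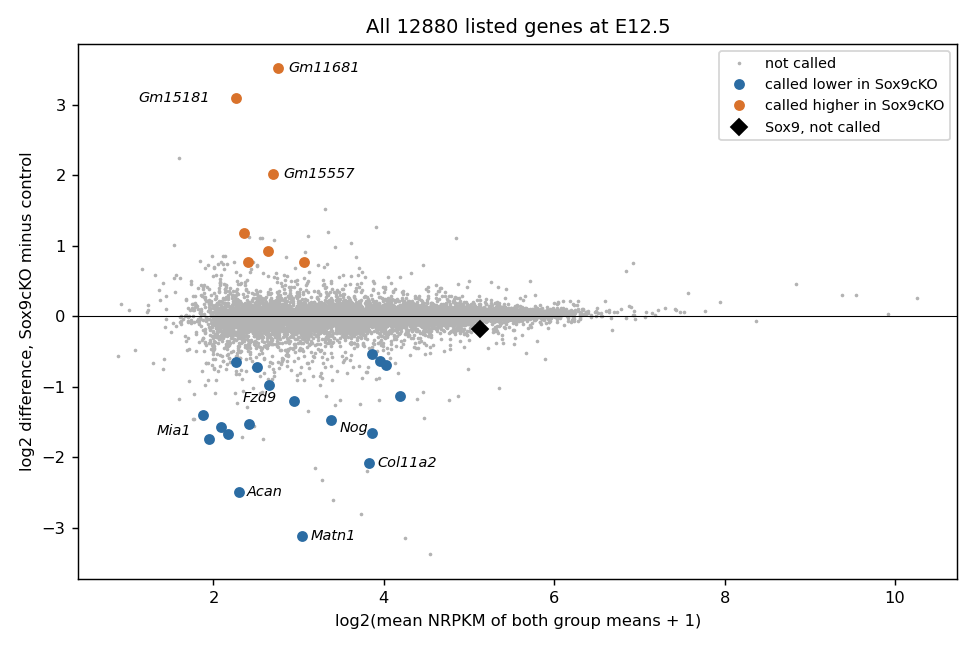
Mean level (x axis, log2 of the mean NRPKM of both groups + 1) against the log2 difference Sox9cKO minus control (y axis) for each of the 12880 genes. Blue points are the 18 genes called lower and orange points the 7 called higher. Most genes lie near 0 (median 0.013), Matn1, Acan and Col11a2 lie lowest among the called genes, and Sox9, the black diamond, lies at -0.18.

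Matrix proteins of cartilage made up the largest falls. Matn1, which encodes matrilin-1, an adaptor that links aggrecan and collagen fibrils (chr4:130944385-130955475), was at 13.5, 5.07 and 23.1 NRPKM in controls 1 to 3 and 0.963, 0.042 and 0.599 in Sox9cKO 1 to 3. Acan, the gene of aggrecan, the proteoglycan that holds water in cartilage (chr7:79053483-79115099), was at 8.43, 3.25 and 10.5 in controls and 0.923, 0.091 and 0.225 in Sox9cKO. Col11a2, a chain of the collagen XI that nucleates cartilage fibrils (chr17:34039437-34066685), was at 23.4, 17.4 and 24.6 and 6.77, 2.69 and 4.21. In all of these, controls 1 and 3 were high, control 2 lower, and Sox9cKO 2 the lowest of all. The log2 differences were -3.11 (SE 0.393, adjusted p = 0.00687), -2.50 (SE 0.323, 0.00726) and -2.09 (SE 0.277, 0.00844). Relative to the control mean, Sox9cKO 1 to 3 kept 6.93%, 0.302% and 4.31% of Matn1 and 31.1%, 12.3% and 19.3% of Col11a2, and Sox9cKO 2 and 3 kept 1.23% and 3.04% of Acan. The Matn1 call was lost without control 1 (adjusted p = 0.0515), that of Acan without control 1 or Sox9cKO 3 (0.0584 and 0.0534), and that of Col11a2 without control 1, control 3 or Sox9cKO 3 (0.0572 to 0.0646). The amounts come from whole buds, in which fewer cartilage cells and less RNA per cartilage cell cannot be told apart.

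Promoter sequences of the 3 genes with these falls are shown, with that of Chadl, a further matrix gene that fell, because its window holds a match to a SOX-type motif. Each is the RefSeq window (GRCm38.p6) from 250 bases before to 50 after the RefSeq start of the gene, 300 bases, written 5′ to 3′ on the gene's strand: Matn1 at chr4:130944135-130944434 (+), Acan at chr7:79052976-79053275 (+), Col11a2 at chr17:34038888-34039187 (+) and Chadl at chr15:81697238-81697537 (-). The Acan and Col11a2 windows end before the gene coordinates given above begin, since those are from GENCODE M21 and its starts differ. Capitals mark ACAAAG or ACAATG, core words bound by SOX factors, searched on both strands (CTTTGT and CATTGT on the other).
Matn1: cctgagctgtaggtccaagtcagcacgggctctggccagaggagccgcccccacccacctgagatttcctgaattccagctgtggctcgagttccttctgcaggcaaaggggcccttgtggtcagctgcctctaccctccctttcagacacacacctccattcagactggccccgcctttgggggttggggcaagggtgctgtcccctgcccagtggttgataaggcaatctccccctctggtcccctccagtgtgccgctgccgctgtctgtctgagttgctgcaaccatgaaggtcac
Acan: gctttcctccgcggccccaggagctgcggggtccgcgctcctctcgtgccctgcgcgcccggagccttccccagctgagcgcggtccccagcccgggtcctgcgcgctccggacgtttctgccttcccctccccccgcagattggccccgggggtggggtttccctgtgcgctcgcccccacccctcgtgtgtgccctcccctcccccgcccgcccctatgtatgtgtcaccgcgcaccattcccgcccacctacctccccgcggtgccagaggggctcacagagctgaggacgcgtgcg
Col11a2: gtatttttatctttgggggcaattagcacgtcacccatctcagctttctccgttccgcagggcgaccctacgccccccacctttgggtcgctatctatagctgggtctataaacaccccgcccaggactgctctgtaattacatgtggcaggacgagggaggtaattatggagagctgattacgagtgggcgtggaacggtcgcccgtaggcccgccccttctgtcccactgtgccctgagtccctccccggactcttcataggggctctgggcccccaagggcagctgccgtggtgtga
Chadl: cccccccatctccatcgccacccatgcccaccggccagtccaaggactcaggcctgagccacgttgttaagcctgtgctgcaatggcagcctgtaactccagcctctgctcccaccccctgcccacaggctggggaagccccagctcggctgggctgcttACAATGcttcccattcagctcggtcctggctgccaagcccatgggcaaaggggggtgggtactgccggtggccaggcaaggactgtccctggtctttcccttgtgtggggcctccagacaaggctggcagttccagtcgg
The Matn1, Acan and Col11a2 windows hold neither word, and the Chadl window holds ACAATG 90 bases before the start. Of the called genes, 16 have a window in the table and 4 of these hold a match (Chadl, Slpi, Sema3c and Rhag), against 28.6% of all 32851 windows. A match is a description of these letters only.

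The other cartilage collagens lay lower without being called. All 7 of the list were below 0, with a median log2 difference of -0.61 against 0.013 over all genes, 43.2% of which lay below 0. In 6 of the 7 the groups did not overlap with Sox9cKO lower (8.5% of all genes), and control 2 was the lowest control in all 7. Col2a1, the main fibrillar collagen of cartilage, was at 71.9, 66.8 and 73.0 NRPKM in controls and 50.9, 40.3 and 47.1 in Sox9cKO, a log2 difference of -0.61 (adjusted p = 0.186). Col9a3 and Col9a2, chains of the collagen IX that decorates fibrils, had -1.19 and -1.02 (adjusted p = 0.0756 and 0.125), and the third chain, Col9a1, had -0.38 with overlapping groups. Col11a1 had -0.47 and Col27a1, a fibrillar collagen of growth cartilage, -0.41. In the library-set fit 5 of the 7 were called: Col2a1, Col9a3, Col11a1, Col11a2 and Col27a1. The summed level of the 7 was 241 to 286 NRPKM in the controls and 139 to 184 in Sox9cKO, so transcripts of the most abundant cartilage collagens remained.

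Of 13 proteoglycans, link proteins and matrilins, 3 fell: Matn1, Acan and Chadl, a leucine-rich repeat protein that binds collagen. Chadl was at 5.00, 4.35 and 5.34 NRPKM in controls and 3.10, 2.40 and 2.74 in Sox9cKO (-0.66, adjusted p = 0.0294); it overlaps L3mbtl2 on the other strand, whose log2 difference was 0.01. The Chadl call was lost without control 1 or 3, Sox9cKO 2 or 3, or Sox9null 2, 3 or 4 (adjusted p 0.0534 to 0.2) and with a sex term (0.0525). The list's median was -0.41, and 11 of 13 lay below 0 (43.2% of all genes did). Matn4, another matrilin, was at 24.1, 15.99 and 24.02 and 8.97, 1.87 and 2.86 (-2.20, adjusted p = 0.0756), with Sox9cKO 1 far above the other mutants. Proteoglycans that are not restricted to cartilage gave smaller values: versican (Vcan) -0.32, decorin (Dcn) -0.41, biglycan (Bgn) -0.10 and perlecan (Hspg2) 0.01. The link protein gene Hapln1, which ties aggrecan to hyaluronan, had -0.16 with overlapping groups.

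Of 9 small secreted cartilage proteins and secretion factors, 1 fell, Mia1, which encodes a small matrix protein made by chondrocytes (also known as cartilage-derived retinoic acid-sensitive protein; chr7:27179742-27181157). Mia1 was at 5.60, 4.45 and 6.03 NRPKM in controls and 1.21, 1.01 and 1.15 in Sox9cKO, within a narrow range in each group. Its log2 difference was -1.58 (SE 0.136, adjusted p = 0.000331), and it was called in 26 of 27 alternatives, each omission of a library among them. Most of it lies within the predicted gene Gm21983 on the same strand, so reads of the 2 cannot be told apart. The list's median was -0.53, 8 of 9 lay below 0 (43.2% of all genes did) and 7 did not overlap with Sox9cKO lower (8.5% of all genes). Cytl1, a cytokine-like protein of chondrocytes, was at 19.1, 6.37 and 16.3 and 4.00, 0.859 and 2.13 (-2.15, 0.0747); control 2 was nearest to the mutants. Lect1, chondromodulin, an inhibitor of vessel growth in cartilage, had -1.25 (0.092), Susd5 -1.74 (0.0756) and Wwp2, a ubiquitin ligase gene whose intron holds the cartilage microRNA miR-140, -0.53 (0.0806). Cytl1, Susd5 and Wwp2 were called together with Mia1 in the library-set fit.

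Of 33 enzymes and transporters of glycosaminoglycan synthesis, 2 fell and the list's median was -0.07. Extl1, a glycosyltransferase of the exostosin family, was at 8.12, 5.26 and 7.56 NRPKM in controls and 2.12, 1.65 and 1.44 in Sox9cKO, with every mutant far below the lowest control. Its log2 difference was -1.53 (SE 0.161, adjusted p = 0.0024), called also without each library in turn. Chst11, a chondroitin sulfotransferase, was at 17.3, 14.7 and 16.6 and 11.4, 10.3 and 10.8, a smaller but regular difference of -0.53 (adjusted p = 0.024). Papss2, which makes the sulfate donor, was at 36.4, 22.2 and 35.3 and 15.3, 9.21 and 8.32 (-1.45, 0.0747). Its paralogue Papss1 was at 52.0, 50.1 and 51.6 and 49.8, 50.6 and 46.8 (-0.06). The enzymes that start the chains (Xylt1, Xylt2, B4galt7, B3galt6, B3gat3) lay between -0.14 and 0.05, and those of heparan sulfate polymerization, Ext1 and Ext2, at -0.04 and -0.03. The Chst11 call was lost without control 1 or 3 or Sox9cKO 2 or 3 (adjusted p 0.135 to 0.196). Papss2 and Chst15 were added to Extl1 and Chst11 in the library-set fit.

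**Figure D2:**
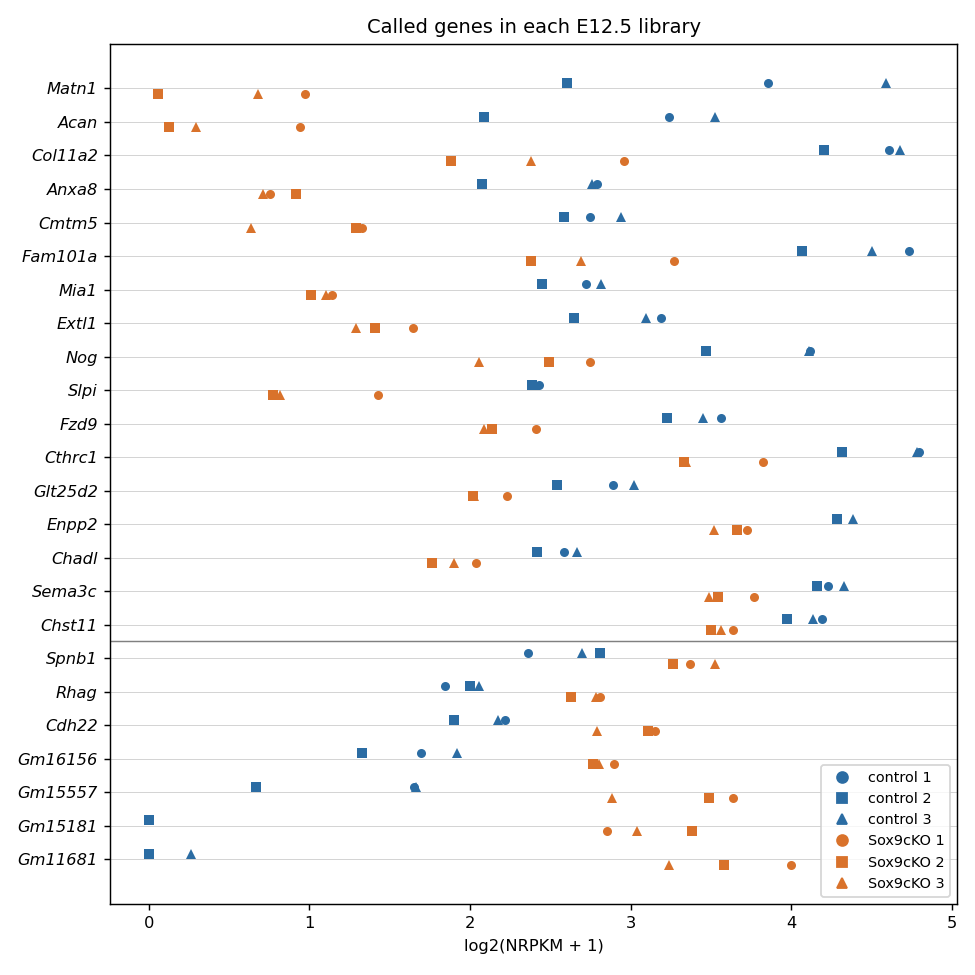
Level of 24 of the 25 called genes in each E12.5 library, as log2(NRPKM + 1), with controls in blue and Sox9cKO in orange, and circle, square and triangle for replicates 1, 2 and 3. Genes above the grey line fell and those below it rose. No blue and orange points of a gene overlap, and the control square (control 2) is the blue point nearest to the orange ones in most genes that fell.

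The SOX partners lay lower than controls but were not called. Sox6 was at 22.0, 17.2 and 21.5 NRPKM in controls and 10.7, 6.01 and 8.67 in Sox9cKO (-1.19, adjusted p = 0.083), and Sox5 at 9.81, 8.40 and 9.25 and 5.78, 4.05 and 5.73 (-0.73, 0.195). Both passed in the library-set fit (limma adjusted p = 0.0248 and 0.0168), but not in the E12.5 libraries alone (0.0915 and 0.0878). The SoxE paralogue Sox8 was higher in each mutant, at 9.12, 10.1 and 9.92 and 10.5, 13.5 and 10.5 (0.21, 1), and Sox10, a gene of Schwann cells and their precursors, lower, at 3.43, 3.31 and 3.97 and 1.09, 2.29 and 1.74 (-0.78, 0.261). The SoxC genes Sox4, Sox11 and Sox12, which act in mesenchymal progenitors, lay between 0.01 and 0.17.

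No member of the condensation list was called out of 20, and its median was -0.17 (-0.32 with the sex term). Of the 20, 15 lay below 0 (43.2% of all genes did) and 8 did not overlap with Sox9cKO lower (8.5% of all genes). Foxc1, a forkhead factor of condensing mesenchyme, was at 26.9, 25.1 and 27.1 and 19.9, 17.3 and 17.3 NRPKM (-0.52, adjusted p = 0.0919; 0.0111 in the library-set fit, the only member called there). Foxc2 had -0.64, tenascin C (Tnc) -0.67 and periostin (Postn) -0.56. Tnc and Nkx3-2, a repressor that keeps precartilage cells in the chondrogenic path, were lowest in Sox9cKO 3, at 8.08 and 4.71 NRPKM. Adhesion genes of condensation overlapped between groups: Cdh2 had 0.03, Ncam1 -0.05 and fibronectin (Fn1) -0.02. The 6 measured genes of hypertrophy overlapped between groups (median -0.06), as did most of all genes. Of 14 osteoblast and perichondrium genes none was called (median -0.15, but -0.02 without Sox9cKO 3 and -0.41 with the sex term). Sp7, the osterix factor of bone-forming cells, had the largest difference of these, at 6.33, 3.76 and 5.96 and 3.37, 2.84 and 3.06 (-0.61, 0.204).

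**Figure D3:**
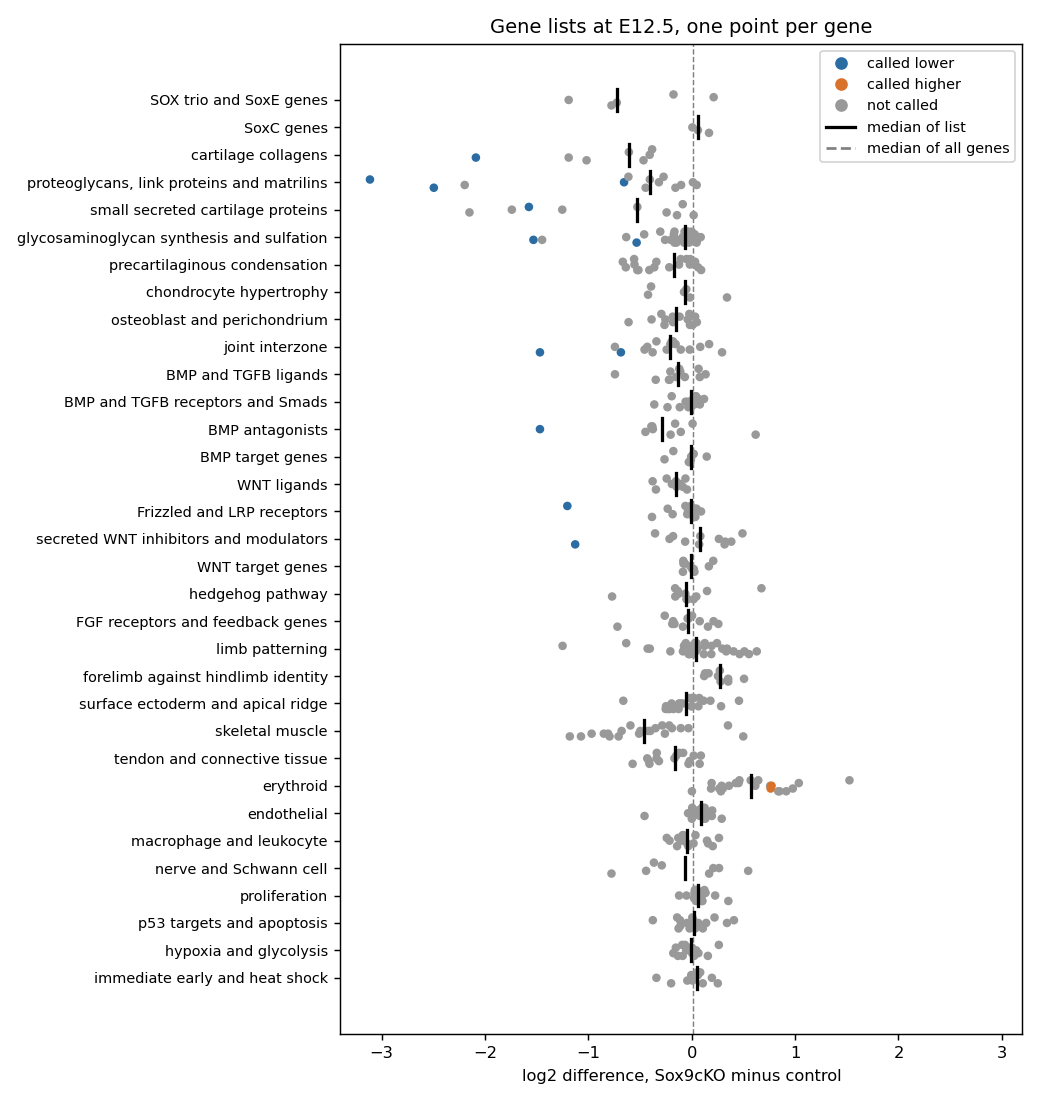
Log2 difference Sox9cKO minus control (x axis) of each measured gene of 33 gene lists (y axis), with called genes in blue (lower) or orange (higher), the median of each list as a black bar and the median of all genes as a dashed line. The cartilage lists lie left of the dashed line and the erythroid list right of it, while BMP and WNT target genes lie around it.

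Of 17 genes of the joint interzone, the cells that will separate adjoining skeletal elements, 2 fell. In 7 the groups did not overlap with Sox9cKO lower (8.5% of all genes). Nog, the gene of noggin, a secreted BMP antagonist made by cartilage condensations (chr11:89300638-89302332), was at 16.3, 10.1 and 16.3 NRPKM in controls and 5.73, 4.61 and 3.16 in Sox9cKO (-1.47, SE 0.216, adjusted p = 0.0159). Enpp2, autotaxin, which makes lysophosphatidic acid (chr15:54838901-54952892), was at 18.6, 18.5 and 19.9 and 12.2, 11.7 and 10.4, tight in both groups (-0.69, SE 0.1, 0.0159). Both calls were lost without control 1 or 3 or Sox9cKO 2 or 3, with adjusted p of 0.073 to 0.134 for Nog and 0.073 to 0.12 for Enpp2. Gdf5, the interzone's growth factor, was at 39.6, 36.2 and 39.5 and 27.6, 25.6 and 16.1, lowest in Sox9cKO 3 (-0.74, 0.289). Jun had -0.34 (0.0756; 0.0164 in the library-set fit), Wnt4 -0.38, Erg -0.46 and Osr2 -0.43. The list's median was -0.21 (-0.36 with the sex term).

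Among BMP and TGFB genes, Nog was the single call. The 12 ligands had a median of -0.14 and the 16 receptors and Smads -0.01. Of the antagonists other than Nog, chordin-like Chrdl1 was at 17.9, 16.5 and 16.5 and 14, 12.2 and 12.4 NRPKM (-0.38, adjusted p = 0.162) and follistatin (Fst) had -0.39. Gremlin (Grem1), which keeps BMP from the apical ridge, ran the other way, at 11.6, 19.3 and 13.5 in controls and 20.5, 21.3 and 27.1 in Sox9cKO (0.62, 0.299), with control 2 near Sox9cKO 1. The 9 BMP target genes overlapped between groups in every case (median -0.01), Id1 at 59.9, 54.4 and 57.9 and 60.3, 57.5 and 53.5 among them.

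In the WNT pathway, a receptor and a modulator fell. Fzd9, a Frizzled receptor (chr5:135248938-135251230), was at 10.8, 8.38 and 9.92 NRPKM in controls and 4.31, 3.39 and 3.24 in Sox9cKO (-1.20, SE 0.136, adjusted p = 0.00384), and was called also without each library in turn. The other 14 Frizzled and LRP-type receptors were not called, and lay between -0.38 (Fzd5) and 0.09 (Fzd7). Cthrc1, a secreted collagen triple helix repeat protein that modulates WNT signalling, was at 26.8, 18.9 and 26.5 and 13.2, 9.08 and 9.19 (-1.13, SE 0.18, 0.0286). Its call was lost without control 1 or 3, Sox9cKO 2 or 3 or Sox9null 2 (adjusted p 0.0572 to 0.196). Sfrp2 had -0.35 and Dkk1, an inhibitor, 0.38 (0.0866 and 0.273; 0.0349 and 0.0401 in the library-set fit). All 10 WNT ligands lay below 0 (43.2% of all genes did), with a median of -0.15 (-0.09 without Sox9cKO 3), and none was called. In 4 the groups did not overlap with Sox9cKO lower (8.5% of all genes). The 10 WNT target genes had a median of -0.004, with Axin2 at 29.9, 29.1 and 29.3 and 28.0, 28.4 and 26.6.

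No gene of the hedgehog (12 measured, median -0.06) or FGF (13, median -0.04) lists was called. Hhip, a hedgehog-binding feedback protein, was at 5.41, 3.51 and 6.40 and 2.77, 2.25 and 2.51 NRPKM (-0.77, adjusted p = 0.092; 0.0433 in the library-set fit). The readout genes Gli1 and Ptch1 had -0.13 and -0.13. Shh, made by a small posterior group of cells, was at 0.23, 1.42 and 0.163 in controls and 0.631, 0.621 and 4.32 in Sox9cKO, so the highest value came from Sox9cKO 3 alone. Fgfr3, a receptor of cartilage cells, was at 19.2, 12.2 and 17.9 and 12.51, 8.89 and 7.49 (-0.72, 0.495), where control 2 overlapped Sox9cKO 1.

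Limb patterning genes gave no call in 32, and 29 of them overlapped between groups (median 0.05). Genes of the proximal limb varied among libraries of the same genotype: Meis1 was at 4.31, 12.1 and 6.46 NRPKM in controls and 5.61, 11.7 and 13.3 in Sox9cKO, and Irx3 at 4.85, 17.1 and 8.08 and 6.76, 16.9 and 17.1. Irx1, of forming digits, was at 20.5, 8.74 and 20.5 and 12.51, 9.71 and 1.31, with Sox9cKO 3 far below the rest. Digit and distal genes were level, Hoxd13 at 67.1, 56.0 and 63.2 and 63.9, 56.3 and 55.0 and Hoxa13 with 0.04. The 9 genes that distinguish limbs or body levels (Pitx1, Tbx4 and Hoxc genes) all lay above 0 (56.8% of all genes did), with a median of 0.27. Control 1 was low in them: Hoxc10 was at 14.6, 29.6 and 19.0 and 20.1, 29.1 and 30.3. The median was 0.10 without control 1 and 0.16 without Sox9cKO 3. The part of the fore- to hindlimb share in these values was not tested.

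Several genes outside the pathway lists also fell. Cmtm5, a membrane protein of the chemokine-like factor family expressed in cartilage, was at 5.73, 5.00 and 6.67 NRPKM in controls and 1.51, 1.45 and 0.552 in Sox9cKO (-1.68, SE 0.193, adjusted p = 0.00407), and was called without each library in turn. Fam101a (also named Rflna), of the refilin family that acts on actin through filamin, was at 25.6, 15.7 and 21.7 and 8.64, 4.197 and 5.46 (-1.66, 0.0124). Slpi, a secreted protease inhibitor, was at 4.39, 4.22 and 4.31 and 1.69, 0.709 and 0.763 (-1.40, 0.00726). The annotated Slpi gene, on the - strand, begins 298 bases past the end of Matn4 on the same strand. Anxa8, an annexin, was at 5.92, 3.21 and 5.78 and 0.683, 0.89 and 0.638 (-1.75, 0.024), and Sema3c, a secreted semaphorin that guides axons and vessels, at 17.8, 16.9 and 19.1 and 12.6, 10.7 and 10.2 (-0.64, 0.024). Glt25d2 (also named Colgalt2), which adds galactose to collagen, was at 6.42, 4.82 and 7.12 and 3.69, 3.05 and 3.07 (-0.73, 0.0433). Of these, Slpi lost its call without control 1, control 3 or Sox9cKO 3 (adjusted p 0.051 to 0.0572), Fam101a and Sema3c without control 1 or 3 or Sox9cKO 2 or 3 (0.0574 to 0.0905 and 0.141 to 0.174), and Anxa8 without any 1 of these or Sox9cKO 1 (0.0616 to 0.196). Glt25d2 was the least stable, called in 9 of 27 alternatives, and lost without 10 of the 13 libraries (0.0501 to 0.299). Anxa8 and Glt25d2 also lost the call with a sex term (0.0624 and 0.0786).

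The genes that rose most were noncoding or predicted. Gm15181, an unprocessed pseudogene of 177 bases (chr1:75514107-75514283, - strand), was listed at 0 in each control and at 6.22, 9.45 and 7.23 NRPKM in Sox9cKO 1 to 3. It was also listed at 0 in all 7 libraries of E11.5, so it was seen only in the libraries with the Prx1CreER transgene. Its log2 difference of 3.09 (adjusted p = 8.65e-07) depends on the pseudocount of 1. The nearest coding gene is Inha, 3741 bases away, at 11.1, 9.37 and 11.0 and 9.36, 8.03 and 6.28 (-0.38, not called).

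Gm11681, a long intergenic RNA on the - strand 4971 bases from Sox9 (chr11:112792731-112799008), was at 0, 0 and 0.201 NRPKM in controls 1 to 3 and 14.98, 11.0 and 8.43 in Sox9cKO 1 to 3 (3.52, SE 0.254, adjusted p = 8.15e-05). At E11.5 it was present in both genotypes, at 7.96, 15.6 and 10.5 in the controls and 16.01 to 25.2 in Sox9null. Among the 4 groups it was at or near 0 only in the E12.5 controls (Sox9fl/fl). By the stated genotypes this is also the only group with neither a Sox9 null allele nor Prx1CreER, since the E11.5 controls were Sox9fl/-. The parts of age and of the Sox9 allele in these values were not tested. Gm15557 was at 2.13, 0.586 and 2.17 and 11.4, 10.2 and 6.39 (2.01, 0.00851) and is a predicted gene annotated as coding that overlaps Gdf5 by 1728 bases on the other strand. Gdf5 was lower in each Sox9cKO library, so the values of these 2 overlapping genes lay in opposite directions. Gm16156 (chr8:105934333-105945843) was at 2.24, 1.51 and 2.79 and 6.46, 5.81 and 5.97 (1.17, 0.00464), and lies opposite Psmb10 (0.06), Lcat (0.02) and Slc12a4 (-0.21), none of which was called. No source used here says whether counting used strand, so reads of these genes and of those opposite them cannot be told apart. The calls of Gm15181, Gm11681 and Gm16156 held without each library in turn, and that of Gm15557 was lost without Sox9cKO 2 (0.0574).

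Cdh22, a cadherin (chr2:165111507-165234853), also rose. It was at 3.65, 2.73 and 3.51 NRPKM in controls and 7.88, 7.63 and 5.91 in Sox9cKO (0.92, SE 0.114, adjusted p = 0.0062), and it was called without each library in turn. At E11.5 it was at 3.93 to 4.48 in controls and 6.78 to 7.78 in Sox9null (log2 difference 0.68, adjusted p = 0.0554).

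Red blood cell genes lay higher in the mutants. Of 23 erythroid genes 2 rose and all 23 lay above 0 (56.8% of all genes did), with a list median of 0.57. Groups did not overlap, with Sox9cKO higher, in 19 of the 23, against 1483 of all 12880 genes. The genes that rose encode parts of the red cell membrane: Spnb1, erythroid beta spectrin, at 4.15, 6.00 and 5.50 NRPKM in controls and 9.34, 8.63 and 10.5 in Sox9cKO (0.76, SE 0.111, adjusted p = 0.0159), and Rhag, the Rh-associated glycoprotein, at 2.59, 3.01 and 3.17 and 6.01, 5.19 and 5.89 (0.77, SE 0.129, 0.0375). Hemgn, of erythroid precursors, was at 2.79, 7.42 and 2.69 and 10.6, 11.8 and 18.1 (1.53, 0.0978), and the transcription factors Klf1 and Gata1 had 0.91 and 0.85. Embryonic globins were higher, Hbb-bh1 at 74.1, 107 and 88.1 and 155, 129 and 172 and Hba-x at 83.2, 103 and 79.7 and 147, 127 and 140, without a call, while adult globin Hbb-b1 overlapped at 22.3, 16.5 and 22.1 and 23.2, 20.4 and 17.2. Some adult globin genes are near-identical copies, so the split of reads among those copies is uncertain. The summed level of the list was 741 to 798 in the controls and 1242, 1016 and 1094 in Sox9cKO. In the library-set fit 12 of 23 were called higher. Spnb1 lost its call without control 1, control 3 or Sox9cKO 3 (0.0503 to 0.108), Rhag without any 1 of the 6 libraries (0.0678 to 0.257) or Sox9null 2 or 3 (0.0693 and 0.0648), and both with a sex term (0.0507 and 0.0705). Whether the amount of blood left in each bud differed was not tested.

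**Figure D4:**
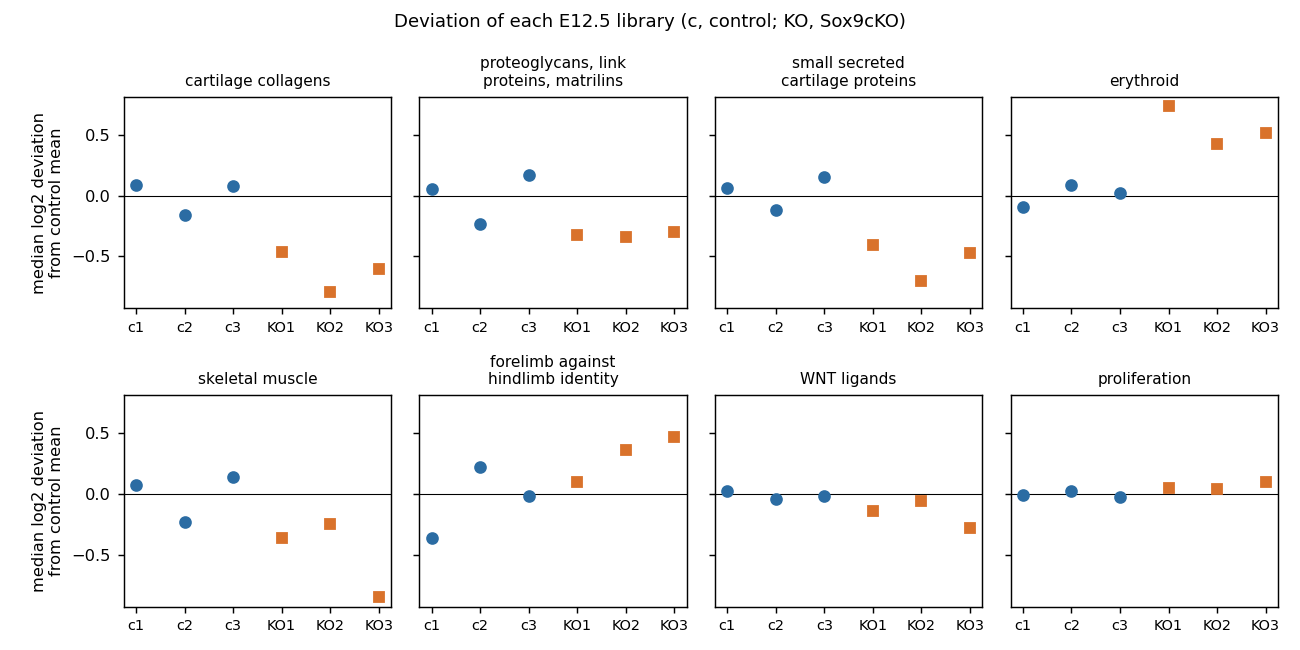
Median deviation of the genes of 8 lists from their control mean (y axis, log2 units) in each E12.5 library (x axis), with controls as blue circles and Sox9cKO as orange squares. Cartilage lists lie at -0.30 to -0.79 and the erythroid list at 0.43 to 0.74 in the mutants, control 2 lies below the other controls in the cartilage and muscle lists, and Sox9cKO 3 is lowest for muscle at -0.85.

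Of 22 skeletal muscle genes none was called, while 20 lay below 0 (43.2% of all genes did). In 7 the groups did not overlap with Sox9cKO lower (8.5% of all genes), and the median was -0.46. Control 2 was the lowest control in 18 and Sox9cKO 3 the lowest mutant in 18. Acta1, skeletal actin, was at 32.1, 18.4 and 30.8 NRPKM in controls and 16.6, 17.2 and 4.52 in Sox9cKO (-1.18, adjusted p = 0.712) and Myh3, embryonic myosin, at 29.1, 19.9 and 35.9 and 17.6, 17.8 and 6.14 (-1.07). Myoblast factors differed less, Myod1 with -0.03 and Myog -0.22, and the progenitor genes Pax3 and Myf5 lay above 0, at 0.50 and 0.35. The list sum was 354 to 464 in the controls and 328, 361 and 233 in Sox9cKO, and the median was -0.29 without Sox9cKO 3 and -0.78 with the sex term. Pax7 was not among the listed genes.

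No gene of the tendon, ectoderm, endothelial, macrophage or nerve lists was called. The tendon list had a median of -0.16 in 16 genes (-0.10 without Sox9cKO 3 and -0.36 with the sex term) and the tendon factor Scx stood at 36.3, 42.0 and 35.9 and 34.7, 38.9 and 42.1 NRPKM. The 22 ectoderm and ridge genes had -0.06, with Epcam at -0.00, Krt14 at -0.20 and the ridge signal Fgf8 at 6.96, 9.47 and 5.57 and 9.08, 8.97 and 13.1. The 20 endothelial genes had 0.09, with 18 above 0 (56.8% of all genes were) by small amounts, such as Cdh5 0.01 and Pecam1 0.08. The 15 macrophage genes had -0.05, and Sox9cKO 3 was lowest in 13 of them; without it the median turned to 0.16, and without control 3 to 0.01. Of 8 nerve and Schwann cell genes Erbb3, a neuregulin receptor of Schwann cell precursors, was lower at 20.2, 19.5 and 20.6 and 14.2, 16.8 and 12.9 (-0.44, 0.398; 0.0433 in the library-set fit), while Tubb3 and Stmn2 of neurons had 0.26 and 0.55. Ptprc and Tnmd were not among the listed genes.

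Lists of cell state genes had medians near 0. Of 25 proliferation genes none was called, but 23 lay above 0 (56.8% of all genes did), with a median of 0.06 (0.13 with the sex term). Groups did not overlap, with Sox9cKO higher, in 11 of the 25, against 1483 of all 12880 genes. Rrm2, a subunit of ribonucleotide reductase, was at 46.4, 47.3 and 40.9 and 50.7, 51.4 and 55.7 NRPKM (0.23), and Mki67 at 44.5, 46.6 and 48.1 and 47.2, 47.3 and 49.6 (0.05). The 19 p53 target and apoptosis genes had a median of 0.02, where the proapoptotic Pmaip1 (0.41) and Bbc3 (0.34) were higher and Bcl2 (-0.38) lower in each mutant without a call. The 16 hypoxia and glycolysis genes had -0.01 and the 11 immediate early and heat shock genes 0.05.

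The genes called at E12.5 were then read in the E11.5 libraries, which the calls rest on only through the shared estimate of spread. All 18 genes that fell at E12.5 lay below 0 in Sox9null at E11.5, as did 43.2% of all genes. Of the 7 that rose at E12.5, 4 lay above 0 at E11.5, Gm16156 and Gm15557 had -0.22 and -0.14, and Gm15181 had 0. Fzd9 and Enpp2 were called lower there as well (-1.01 and -0.75, adjusted p = 0.0144 for each, where 0.0543% of genes were called). Fzd9 was at 2.24, 3.18 and 3.27 NRPKM in E11.5 controls and 0.784 to 1.06 in Sox9null, with no overlap. Matn1 and Acan were near absent in the E11.5 controls, at 0.304 to 0.725 and 0.065 to 0.502, so these levels left little room for a difference. A difference between the effects at the 2 ages was called for 4 genes (0.0311%): Gm15181 (3.09, adjusted p = 3.21e-05), Gm11681 (2.70, 0.0254), Mia1 (-1.45, 0.0254) and Gm16156 (1.39, 0.0347). Mia1 was at 1.05 to 1.36 in E11.5 controls, near its level in Sox9cKO at E12.5. Age, the way Sox9 was removed and the control genotype change together between these comparisons and cannot be told apart.

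**Figure D5:**
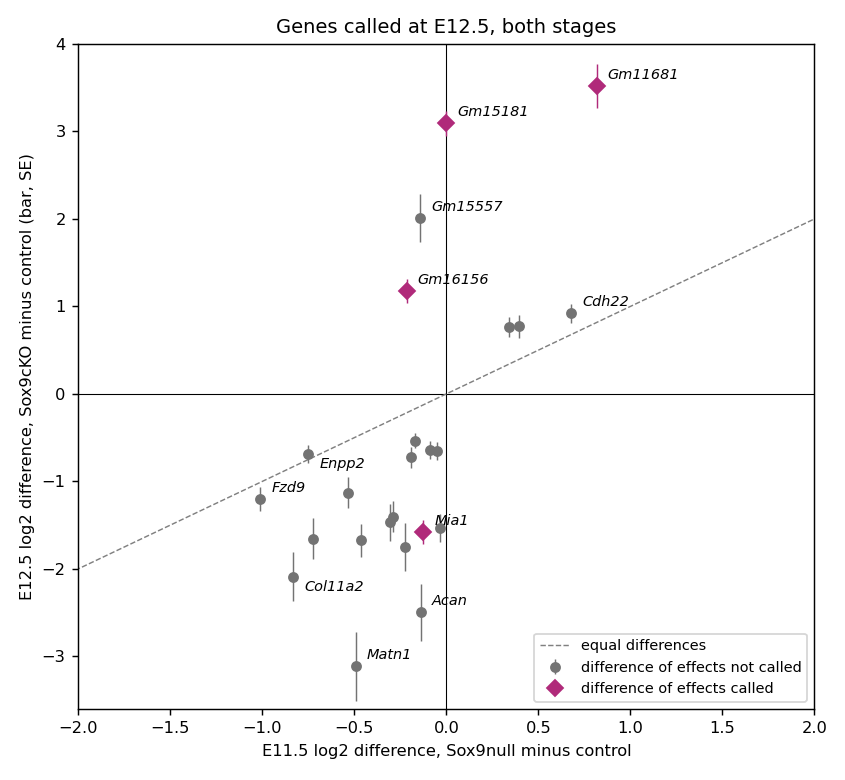
Log2 difference of the mutants at E11.5 (x axis, Sox9null minus control) and at E12.5 (y axis, Sox9cKO minus control, bar SE) for 24 of the 25 genes called at E12.5. The 4 diamonds are genes whose effects at the 2 ages differed by limma; Matn1 and Acan, near absent in E11.5 controls, lie far below the dashed line of equal differences, and Fzd9 and Enpp2 lie close to it.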

How the data were processed

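RNA-seq libraries of mouse limb buds were compared at the level of genes. Per the labels, the RNeasy Mini Kit gave the RNA for Illumina libraries, and the submitters' processing notes name CASAVA 1.8 and mm10. The deposited table holds NRPKM, the authors' normalized RPKM (reads per kilobase, scaled to library size), for 12880 genes with a group average of at least 3, per the file header. No source used here names the aligner, the annotation release, the use of strand or the scaling between libraries. Read totals are not given in them either, and since whole reads could be recovered for only part of the genes, count models were not fitted.

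Groups came from the labels. On log2(NRPKM + 1), limma 3.58.1 (R 4.3.3; trend and robust options) fitted the means of 4 groups over 13 libraries, and genes were called at a Benjamini-Hochberg adjusted p under 0.05 over all 12880 genes. The test was also run on simulated data that had the means and fitted spread of these data, with independent noise and no library sets or sex split. P-values measure the spread between these libraries. Genes, lists and the members of the comparison were chosen with earlier results of these data known. Named are the called genes, the gene lists, and the largest differences not called. Of the 25 called genes, 1 is counted but not reported here. Coordinates are from GENCODE M21 (mm10), which matched 12715 genes. Alternatives changed the pseudocount (0.1, 0.5), the filter, scaling, libraries fitted, and added terms for sex, E11.5 library set or replicate number. A sex term in the E12.5 libraries alone, and both terms together, were chosen after seeing the data. The authors' own averages and p-values were not used.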

Additional observations from a re-analysis of the deposited data

Results flagged for a closer look

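The effects at E12.5 (Sox9cKO against control) and at E11.5 (Sox9null against control) differed by a limma test of the difference, with Benjamini-Hochberg adjustment over all genes, in 4 genes. The difference of the log2 differences was 3.09 for the pseudogene Gm15181 (adjusted p = 3.21e-05), 2.7 for the noncoding Gm11681 beside Sox9 (0.0254), -1.45 for the cartilage gene Mia1 (0.0254) and 1.39 for the antisense gene Gm16156 (0.0347). Gm15181 was listed at 0 in all E11.5 libraries, so its value depends on the pseudocount.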

How the results depend on the processing

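Against 25 genes called, 57 were called after quantile normalization (21 higher, 36 lower), 105 with a term for the E11.5 library sets and 156 with library set and sex terms, the 25 among them in each; 9 to 47 were called when each of the 13 libraries was left out (9 without control 1 and 47 without control 2 at E12.5, 38 without control 1 at E11.5). Against 16 calls with a log2 difference of at least 1, there were 10 in the E12.5 libraries alone, 27 with the library set term, 46 with both terms, and 8 to 29 with each library left out; these are counts, not the same genes throughout. The log2 difference of Sox9 kept its sign and stayed uncalled in every alternative. Deviations of same-numbered E12.5 libraries correlated at 0.169, 0.0266 and -0.117, and those of differently numbered ones at -0.312 to 0.244. With 3 libraries in each group, these values cannot decide whether the replicate numbers pair the samples. A replicate block gave 16 calls over 13 libraries (12 of the 25) and 19 over the E12.5 libraries (7 of the 25). With the sex term in the E12.5 libraries alone, added after seeing the data, 26 genes were called, 4 of them among the 25. For single named genes 515 values kept direction and side of the threshold, 157 kept direction but lost the call, and 0 reversed. The causes were not tested. Depth is known only in relative terms. In the fit of 13 libraries without added terms, an unadjusted limma p under 0.05 was found for 697 genes. If no gene differed, 644 would be expected. The count was 1781 in the E12.5 libraries alone, 1738 with the library set term and 1323 with the sex term. It was 423, 425 and 434 without control 1, control 3 or Sox9cKO 3 at E12.5.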

Other observations

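Some large differences outside the lists were not called by limma. Eomes, a T-box factor, was at 5.26, 3.33 and 3.35 NRPKM in controls and 1.32, 0.403 and 0.751 in Sox9cKO (-1.46, adjusted p = 0.06), without overlap. Casq2, a calcium-binding protein of muscle, was at 12.1, 7.47 and 13.7 and 5.67, 5.66 and 1.23 (-1.35, 0.31). Acp5, the tartrate-resistant phosphatase of osteoclasts and macrophages, was at 6.87, 10.6 and 7.08 and 15.3, 14.1 and 16.4 (0.85, 0.0978), with every mutant above the controls. Akr1e1, an aldo-keto reductase, was at 2.44, 2.40 and 5.15 and 7.28, 8.69 and 7.43 (1.08, 0.349).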
